A study of Bos taurus with 8 samples.

Results

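Bile duct cells, or cholangiocytes, line the channels that carry bile out of the liver, and 7 genes that mark them in liver tissue are described here: SPP1, EPCAM, SOX9, CFTR, ANXA4, CLDN4 and WFDC2. They were found by gene symbol among the 14627 named genes that the arrays cover with 15008 distinct probes. For 6 of the 7 genes there was 1 probe each, and no probe carried the name SOX9, so this transcription factor of duct cells was not measured. All 6 probes were well above background, as the scanner software calls it, on 8 of 8 arrays, and all 6 were among the 10985 probes tested.

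The arrays came from Holstein bull cattle aged 5 to 6 months with a mean weight of 164 ± 14 kg (SD), all fitted with a rumen fistula. Every animal ate roughage for 11 days and then a high-grain diet for 2 days, which served as the challenge for subacute ruminal acidosis (SARA), in which rumen pH drops and lipopolysaccharide (LPS) leaves dying bacteria. Egg yolk immunoglobulin holding an LPS antibody was dosed through the fistula daily over 14 days, at 0, 2 or 4 g per head, in a replicated Latin square. Liver tissue taken 2 days after the challenge was available from cattle 19, 20, 23 and 24, and every one of them had a 0 g array and a 4 g array, which makes 8 arrays in 4 pairs. The 0 g animals had the fistula, the diet change and the challenge too, so neither dose shows liver without them. None of the 8 arrays came from the 2 g group, and the labels do not give the order in which the doses were received. The question was whether the antibody dose went with a difference in liver expression in the same animal.

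Cholangiocytes are joined into a tight sheet by claudins and other adhesion molecules. They add bicarbonate and water to bile through ion channels at the surface facing the duct, and they guard the duct with secreted proteins. They are a small share of the cells of normal liver, they multiply when ducts are injured, and most of the genes that mark them also serve other epithelia such as pancreatic duct, gut and kidney.

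The SPP1, EPCAM and WFDC2 probes are shown because the widest differences below were read from these 60-base probes, in sense orientation 5′ to 3′. Triplets were read from the first base of each probe, and capitals mark the first stop triplet in that frame. The SPP1 probe has none in its 20 triplets. Of the EPCAM probe the first 30 bases are shown, with a stop at triplet 9. The WFDC2 probe has its stop at triplet 19. This is a reading of letters alone and does not say which frame is translated.
SPP1: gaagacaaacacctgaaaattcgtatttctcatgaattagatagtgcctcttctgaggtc
EPCAM: gaagaccactgttgtgttgttagtTAAcat
WFDC2: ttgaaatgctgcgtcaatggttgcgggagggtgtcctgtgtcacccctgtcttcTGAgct
On the cattle assembly UMD 3.1, as the files give it, the SPP1 probe lies at chr6:38121014-38121073 on the minus strand and the EPCAM probe at chr11:29636440-29636499 on the plus strand. The WFDC2 probe is given as chr13:75081101-75084190 on the plus strand, a span of 3090 bases for a 60-base probe. The CFTR probe lies at chr4:51035822-51035881 (minus strand), the ANXA4 probe at chr11:68121099-68121158 (plus strand) and the CLDN4 probe at chr25:33988710-33988769 (minus strand). Exon and untranslated region annotation was not used here. The 6 probes had 35.0% to 55.0% G and C, against a median of 45.0% over all 15008 probes. The letters AATAAA, searched on the probe strand, occurred in 1 of the 6 (ANXA4) and in 9.51% of all probes. A stop triplet in each of the 3 frames occurred in EPCAM and ANXA4, and in 13.7% of all probes.

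Levels below are log2 processed signals after subtraction of the array's own 75th percentile, so 0 is the 75th percentile and each unit is a doubling. A level depends on the probe as well as on the transcript, so levels are compared between arrays and not between genes. The 75th percentile of the processed signal was 121.8 on the 4 g array of animal 19 and 121.3 on the 0 g array of animal 20, against 210.9 to 300.3 on the other arrays. Between 64.4% and 80.4% of the probes were well above background. Hepatocyte markers were strong throughout, with 22 or 23 of the 24 on the array well above background (AMBP on no array). Of 33 squamous and rumen epithelium markers, 11 to 19 were well above background. Of those 33, 9 were so on all 8 arrays, and 11 on no array, among them TP63 and KRT14. The 9 included DSP (mean level −2.95) and the keratins KRT5 (−4.56) and KRT6B (−3.63). KRT6B was at 0.62 on the 0 g array of animal 19 and at −5.11 to −2.51 on the others. The labels name liver as the tissue and the extraction protocol names rumen epithelium. In bulk tissue such as this, fewer bile duct cells and less RNA per bile duct cell cannot be told apart.

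Several arrays stood apart before any comparison was made. The 0 g array of animal 23 carried pancreatic transcripts: all 23 pancreatic acinar markers with a probe exceeded background there, with the protease CPA1 at 7.77 against −1.65 to −1.03 on the other 7 arrays, and the log2 of the summed acinar signal was 11.8 against 3.61 to 4.74. On the other 7 arrays AMY2B, at 3.31 to 4.67, weighed most in this sum. The labels of animals 23 and 24 were also checked against probes with 2 clear levels. Among probes with levels falling into pairs of arrays with a gap of at least 2 log2 units and at most 1 unit within each pair, 0 paired the arrays of these animals by animal number and 21 by dose. For animals 19 and 20, 20 probes paired by animal number, 0 by dose, and 77 paired the dim arrays with each other. More probes thus followed the dim pair than the animal numbers, and this check does not settle the pairing of animals 19 and 20 either. The arrays labelled 23 and 24 are therefore named by their labels only, and the dose difference of each member, the list counts and the named list genes are given with and without them.

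Of the 6 measured genes, 4 had a higher mean at 4 g and 2 a lower mean, with a median log2 difference of 0.18, against 0.02 over all tested probes, of which 53.6% were higher. No member passed the test over all 10985 probes, where 0 probes passed (0% called), and the smallest adjusted p of limma over all of them was 0.588. At an unadjusted p under 0.05, 1 member was higher (SPP1) and 0 were lower, where 0.337% of all probes were higher and 0.765% lower. The 0 g and 4 g arrays overlapped in all 6 genes, so that 0 members were fully separated, where 0.310% of probes were fully separated upwards and 0.300% downwards. The 95% interval of the median probe was ± 0.70 log2 units, without adjustment over the probes. The intervals of SPP1 (0.21 to 2.45) and EPCAM (−2.37 to 0.19) were wider. A larger difference was needed to pass the adjusted test, which SPP1 at 1.33 did not pass.

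**Figure D1:**
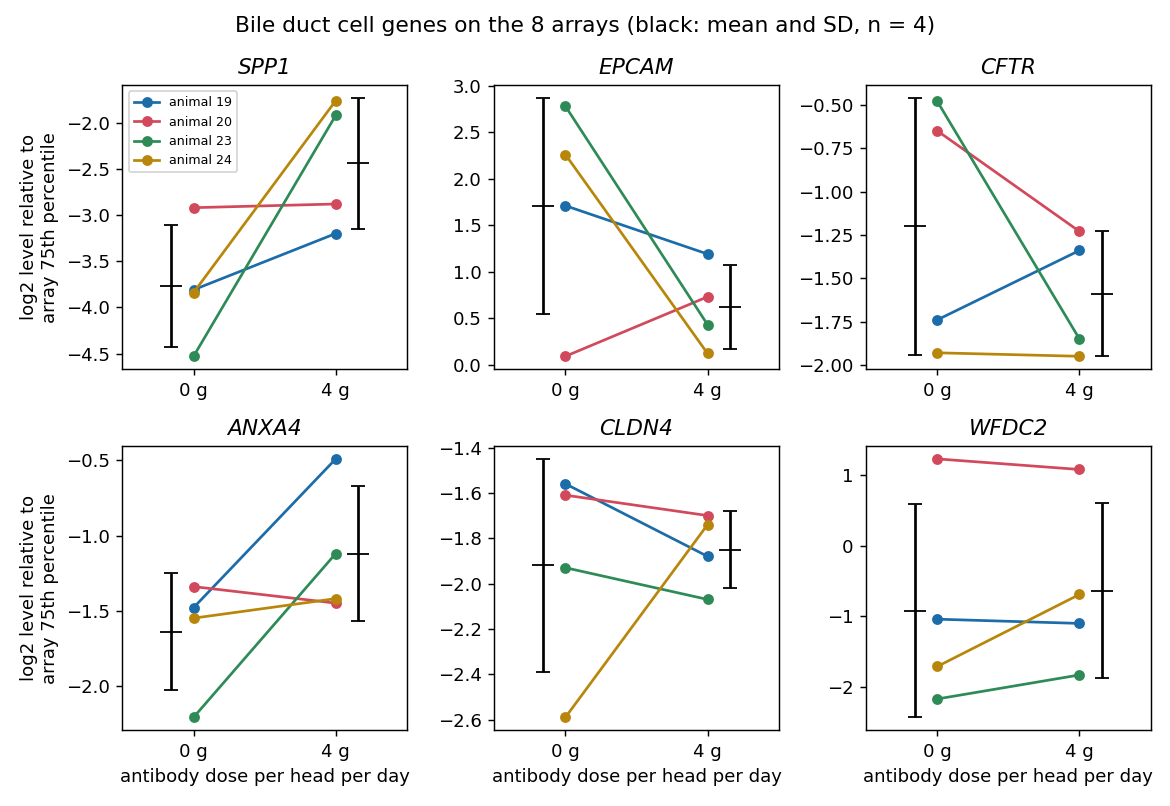
Log2 level relative to the array's 75th percentile (vertical axis) of each measured bile duct cell gene at 0 g and 4 g of antibody per head per day; each line joins the arrays of 1 animal, and black marks give mean and SD, n = 4. SPP1 is higher at 4 g in 4 of 4 animals, EPCAM is lower in 3 of 4, and the lines of WFDC2 lie far apart but nearly flat, with animal 20 at 1.23 and 1.08.

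SPP1 encodes osteopontin, a secreted phosphoprotein that binds integrins and CD44 and is made by bile duct cells and by activated macrophages. At 0 g its level was −3.81 in animal 19, −2.92 in animal 20, −4.53 in animal 23 and −3.84 in animal 24. At 4 g it was −3.20, −2.88, −1.92 and −1.76 in the same order. The arrays labelled 4 g of animals 23 and 24 were the highest of the 8, and the groups overlapped because the 0 g array of animal 20 stood above the 4 g array of animal 19. Those last 2 arrays were the dim ones, and SPP1 read 16 processed signal units on the first and 13.2 on the second. The mean was −3.77 ± 0.66 at 0 g and −2.44 ± 0.71 at 4 g (SD, n = 4), so 4 g exceeded 0 g by 1.33 (SE 0.46, 95% CI 0.21 to 2.45) or 2.52-fold. The unadjusted p of limma was 0.0269 and the adjusted p 1.00, with the level higher at 4 g in 4 of 4 animals. The SPP1 signal was faint, at 11.4 to 79.1 processed signal units. With background correction by normexp, which adds an offset of 50, the difference was 0.24.

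The SPP1 difference came mostly from animals 23 and 24. It was 0.61 in animal 19 and 0.04 in animal 20, but 2.60 in animal 23 and 2.08 in animal 24. The pairs of animals 19 and 20 each held a dim array, and the part of this in their differences was not tested. Without animals 23 and 24, which leaves slide row 1, the difference was 0.32 (unadjusted p of limma 0.611), and within slide row 2, which holds only these animals, it was 2.34 (adjusted p 0.429). Without the 0 g array of animal 23, and so without the animal block, it was 1.08 (adjusted p 1.00). The 4 arrays of animals 23 and 24 fell into clear levels for SPP1: a gap of 1.91 separated those labelled 0 g from those labelled 4 g, with spreads of 0.69 and 0.17 inside the pairs. A gap at least as wide was found in 26 of the tested probes, or 0.237%. These 4 arrays share slide row 2, so row does not separate them, whereas dose and individual cannot be told apart for them, given the label check above.

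EPCAM encodes the epithelial cell adhesion molecule, a surface protein of bile duct and progenitor cells that mature hepatocytes lack. At 0 g its level was 1.71 in animal 19, 0.09 in animal 20, 2.78 in animal 23 and 2.26 in animal 24. At 4 g it was 1.19, 0.73, 0.43 and 0.12. The 0 g arrays of animals 23 and 24 were the highest of the 8, and the 0 g array of animal 20, a dim array, was the lowest, so the groups overlapped. The mean was 1.71 ± 1.16 at 0 g and 0.62 ± 0.45 at 4 g, and these differed by −1.09 (SE 0.53, 95% CI −2.37 to 0.19), that is 2.13-fold lower at 4 g. The unadjusted p of limma was 0.0823 and the adjusted p 1.00, with the level lower in 3 of 4 animals. By animal the difference was −0.52, 0.64, −2.35 and −2.13.

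EPCAM was high where SPP1 was low on the arrays of animals 23 and 24. A gap of 1.83 separated the EPCAM levels of the arrays labelled 0 g from those labelled 4 g in these animals, and 30 tested probes (0.273%) had a gap as wide. Without both animals the EPCAM difference was 0.06 (unadjusted p of limma 0.929), and within these animals it was −2.24 (adjusted p 0.422). Without the 0 g array of animal 23, on which EPCAM was highest, it was −0.73 (unadjusted p 0.185, no animal block). That EPCAM maximum lay on the array with pancreatic transcripts, and pancreatic duct and acinar cells also make EPCAM; its part in the EPCAM level was not tested. On the 0 g array of animal 24, with the second highest EPCAM level, the log2 of the summed acinar signal was 3.61, the lowest of the 8 arrays. AMY2B, at 3.31 on this array, weighed most in that sum, so it is not a measure of pancreatic RNA. Some other acinar genes were higher on this array than on the arrays of animals 19 and 20. PRSS1 was at −0.60 against −4.11 to −3.08, and REG3A at −1.94 against −7.89 to −5.28. These genes were also at −0.05 and −1.36 on the 4 g array of animal 23, where EPCAM was at 0.43.

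**Figure D2:**
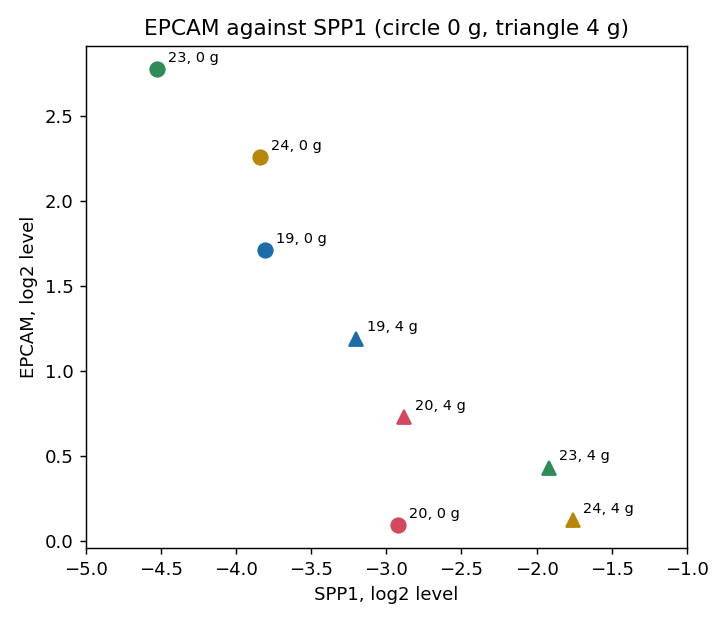
EPCAM (vertical axis) against SPP1 (horizontal axis), both as log2 level relative to the array's 75th percentile, 1 point per array labelled with animal and dose; circles are 0 g, triangles 4 g and colours the animals. The 0 g arrays of animals 23 and 24 lie at the upper left and their 4 g arrays at the lower right, and the arrays of animals 19 and 20 lie between them in SPP1, with the 0 g array of animal 20 the lowest in EPCAM (0.09).

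Across the 8 arrays the SPP1 and EPCAM levels had Pearson's r = −0.90 and Spearman's rho = −0.86. Without the 0 g array of animal 23 r was −0.84, and without the 2 arrays farthest from the median of SPP1 it was −0.81. The 8 arrays come from 4 animals on 1 slide and share a scaling, so r is given as a description with no p. Among the 15 pairs of members, this was the only one with an absolute r of 0.58 or more apart from EPCAM with WFDC2 (−0.63) and CLDN4 with WFDC2 (0.58). Over the 15 pairs r ran from −0.90 to 0.58.

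CFTR encodes the chloride channel at the duct surface through which bile duct cells drive bicarbonate and water secretion. Its level at 0 g was −1.74, −0.65, −0.48 and −1.93 in animals 19, 20, 23 and 24, and at 4 g it was −1.34, −1.23, −1.85 and −1.95. The highest level was on the 0 g array of animal 23, which carries the pancreatic transcripts, and CFTR is also a channel of pancreatic ducts; the part of this in its level was not tested. The mean was −1.20 ± 0.74 at 0 g and −1.59 ± 0.36 at 4 g, and these differed by −0.40 (SE 0.34, 95% CI −1.21 to 0.42). The unadjusted p of limma was 0.284. The difference was −0.15 without the 0 g array of animal 23 and −0.07 without animal 23 as a whole, and −0.09 without animals 23 and 24.

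ANXA4 encodes annexin A4, a calcium-dependent protein that binds membrane phospholipids and is abundant in secretory epithelia. Its level at 0 g was −1.48, −1.34, −2.21 and −1.55 in animals 19, 20, 23 and 24, and at 4 g it was −0.49, −1.45, −1.12 and −1.42. The 4 g array of animal 19 was the highest and the 0 g array of animal 23 the lowest, with the other 6 arrays between −1.55 and −1.12. The mean was −1.64 ± 0.39 at 0 g and −1.12 ± 0.45 at 4 g, and these differed by 0.52 (SE 0.30, 95% CI −0.19 to 1.24; unadjusted p of limma 0.125). The level was higher at 4 g in 3 of 4 animals, by 0.99 in animal 19 and 1.09 in animal 23, and the differences in animals 20 and 24 were −0.12 and 0.13. Without animals 23 and 24 the difference was 0.44.

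CLDN4 encodes claudin 4, a tight junction protein that limits passage of ions between epithelial cells. Its level at 0 g was −1.56, −1.61, −1.93 and −2.59 in animals 19, 20, 23 and 24, and at 4 g it was −1.88, −1.70, −2.07 and −1.74. CLDN4 was the steadiest of the 6 genes, with a range of 1.03 over the 8 arrays. The lowest level was on the 0 g array of animal 24. The means were −1.92 ± 0.47 and −1.85 ± 0.17, and the difference of 0.07 (SE 0.28, 95% CI −0.60 to 0.74; unadjusted p of limma 0.807) was smaller than the spread between animals. It was lower at 4 g in 3 of 4 animals and higher by 0.85 in animal 24, which set the sign of the mean; without animal 24 the difference was −0.19, and without animals 23 and 24 it was −0.21.

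**Figure D3:**
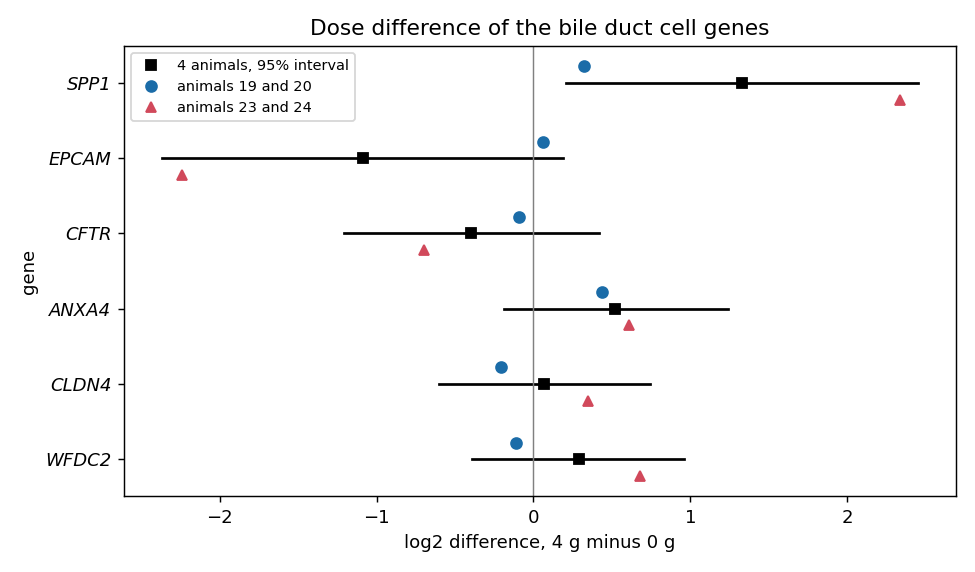
Log2 difference, 4 g minus 0 g, of each measured bile duct cell gene (horizontal axis) over 4 animals (black squares, with the 95% interval from limma as a line), beside the difference over animals 19 and 20 (circles) and over animals 23 and 24 (triangles). The SPP1 interval, 0.21 to 2.45, lies above 0 before adjustment over all probes, the other 5 intervals include 0, and for SPP1 and EPCAM the triangles (2.34 and −2.24) lie far from the circles (0.32 and 0.06).

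WFDC2 encodes HE4, a small secreted protein of the whey acidic protein family made by many duct and airway epithelia. Its level at 0 g was −1.04, 1.23, −2.17 and −1.71 in animals 19, 20, 23 and 24, and at 4 g it was −1.10, 1.08, −1.83 and −0.69. Both arrays of animal 20 stood above all 6 others, and both arrays of animal 23 were the lowest. The dose difference was 0.29 (SE 0.28, 95% CI −0.39 to 0.96; unadjusted p of limma 0.342), with 2 animals higher and 2 lower, from means of −0.92 ± 1.51 at 0 g and −0.64 ± 1.24 at 4 g. Without animals 23 and 24 the dose difference was −0.11. WFDC2 was the member that varied most over the 8 arrays, with a range of 3.40, and its SD over the arrays was larger than that of 98.1% of the tested probes.

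With the animals taken from the labels, most of this spread lay between animals. The label check above did not settle the pairing, so the values here hold for the animals as labelled. The mean level was −1.07 in animal 19, 1.16 in animal 20 and −1.20 in animal 24, and lowest in animal 23, 3.16 below animal 20, whereas the largest difference between the arrays of 1 animal was 1.02. In the F-test on the animal terms, WFDC2 had F = 23.5 with an unadjusted p of 0.000784, rank 9 of the 10985 probes, and an adjusted p of limma of 0.957. It was the 1 member of 6 with an unadjusted p under 0.05 between animals, where 2.74% of all probes had one and 0% passed after adjustment. Without animal 20, F was 3.18 (unadjusted p 0.114), so the difference between animals rested on this animal. Between animals 19 and 20 alone, F was 13.8 (unadjusted p of limma 0.00676, adjusted p 1.00). The other 5 members had F between 0.48 and 1.68, with unadjusted p of limma from 0.265 to 0.707.

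On the 0 g array of animal 23, the members did not move one way. EPCAM (2.78) and CFTR (−0.48) had their highest level of the 8 arrays there, while SPP1 (−4.53), ANXA4 (−2.21) and WFDC2 (−2.17) had their lowest. Among the tested probes of all kinds, 12.1% were highest on that array, and 0.794% were more than 2 log2 units above the other 7.

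Genes of bile duct cells other than the members were taken from 5 lists covering keratins and junctions, secretion and transport, cilia, transcription factors with Notch signalling, and mucosal defence. Joined after the values had been seen, they hold 126 genes, of which 111 had a probe and 88 were tested. Of these, 43 were higher and 45 lower at 4 g, with a median of −0.01, 0 passed the adjusted test, and 1 was higher at an unadjusted p under 0.05 and 0 lower, where 0.337% of all tested probes were higher and 0.765% lower. This median is close to the median of 0.02 over all tested probes, and 14 of the 111 were well above background on no array. The log2 of the summed signal of the 111 genes was 7.98 to 8.53 at 0 g and 8.01 to 8.53 at 4 g, so the groups lay over each other. Bright genes weigh most in this sum, above all CP (mean level 6.90), which is not a gene of duct cells alone. The mean of the 111 log2 levels, in which each gene counts alike, was −2.62 to −2.01 at 0 g and −2.60 to −2.15 at 4 g.

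Among keratins and junction proteins, which give the duct sheet its strength and seal, 18 of 25 were tested, 8 higher and 10 lower (median −0.12). KRT19, a keratin that separates bile duct cells from hepatocytes, stood at a mean level of 4.25 and differed by −0.16 (SE 0.41), with 2 animals each way. KRT7, its companion duct keratin, which the naming rule did not choose, differed by −0.32 (SE 0.31). The junction adhesion molecule F11R differed by 0.20 (SE 0.28). SPINT2, a membrane inhibitor of serine proteases, was at 3.36 on the 0 g array of animal 23 and at −0.14 to 1.22 on the others. ESRP1, an epithelial splicing factor, and the membrane protease ST14 also had their highest levels on that array, at −2.14 and −3.34, and differed by −0.68 and −0.80.

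Among secretion and transport genes, 18 of 24 were tested, with CFTR itself included, 10 higher and 8 lower (median 0.08). The water channel AQP1 differed by −0.47 (SE 0.27) and the bicarbonate exchanger SLC4A2, which works beside CFTR, by −0.64 (SE 0.35), each lower in 3 of 4 animals. The glucose transporter SLC5A1 was at −3.80, −3.56, −4.41 and −4.88 at 0 g and at −2.94, −4.02, −3.04 and −2.99 at 4 g in animals 19, 20, 23 and 24. It differed by 0.91 (SE 0.40, unadjusted p of limma 0.0621), higher in 3 of 4 animals.

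Among genes of the cholangiocyte cilium and the polycystic disease proteins, 14 of 14 were tested, 6 higher and 8 lower (median −0.03). GANAB and SEC63, which serve protein folding and entry in the endoplasmic reticulum, differed by −0.31 (SE 0.31) and −0.16 (SE 0.25). The polycystin PKD1 differed by −0.84 (SE 0.37) and was well above background on 5 of 8 arrays.

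Among transcription factors and Notch genes, 22 of 26 were tested, 11 higher and 11 lower (median 0.00). ONECUT1, which guides the choice between hepatocyte and duct cell, differed by 0.58 (SE 0.27), higher in 4 of 4 animals. The Notch target HEYL differed by 0.49 (SE 0.23). ANKRD1, a target of the YAP coactivator, was at −1.53, −1.74, −1.64 and −1.69 at 0 g and at −0.54, −1.35, −0.80 and −1.13 at 4 g. Every 4 g array was above every 0 g array for ANKRD1, as for 0.310% of all tested probes, and the difference was 0.70 (SE 0.23, unadjusted p of limma 0.0212, adjusted p 1.00).

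Among mucosal defence genes, 18 of 24 were tested, 9 higher and 9 lower (median 0.01). PIGR, the receptor that carries immunoglobulin A into bile, differed by 0.58 (SE 0.25, unadjusted p of limma 0.0573), higher in 4 of 4 animals. The neutrophil attractant CXCL8 differed by 0.34 (SE 0.24). MUC1, a membrane mucin, was at 2.44 on the 0 g array of animal 23 and at −5.51 to −2.71 on the others, so its difference of −1.91 (SE 1.40) rested on that array. CP and TM4SF4, which hepatocytes or other liver cells also make, differed by 0.03 and 0.27.

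**Figure D4:**
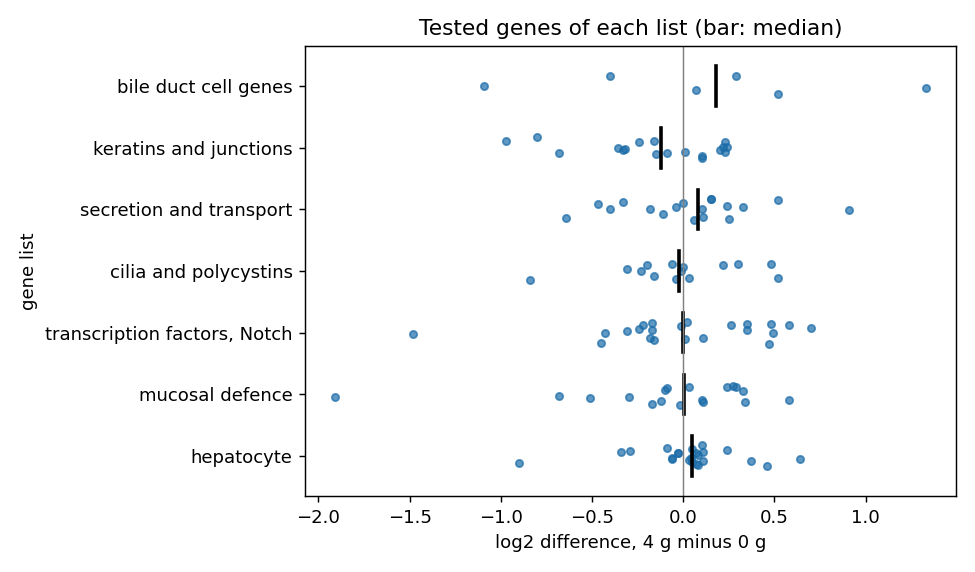
Log2 difference, 4 g minus 0 g (horizontal axis), of every tested gene in the bile duct cell genes, 5 further bile duct lists and the hepatocyte list; each point is 1 gene and each black bar the list's median. The medians run from −0.12 for keratins and junctions to 0.18 for the bile duct cell genes, and SPP1 at 1.33 is the rightmost point.

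SPP1 acts through integrins and CD44 and is cut by matrix proteases. Of 13 receptors and partners on the array, 11 were tested, 4 higher and 7 lower (median −0.07). The integrin ITGA9 differed by −0.07 (SE 0.25), CD44 by −0.37 (SE 0.26) and the protease MMP7 by −0.51 (SE 0.39). The matrix protein tenascin C (TNC), another integrin ligand, differed by 0.80 (SE 0.27, unadjusted p of limma 0.0231, adjusted p 1.00), higher in 4 of 4 animals.

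Lists of other cells that can make the members were read beside them. Of 19 macrophage and Kupffer cell genes, all tested, 6 were higher and 13 lower (median −0.06), and 19 of 19 were well above background on every array. GPNMB, which the naming rule did not choose, had the widest difference among them, 1.05 (SE 0.91), with 2 animals each way. It differed by 3.19 over animals 23 and 24 and by −1.08 over animals 19 and 20. The log2 of the summed signal of these 19 genes was 8.03 to 8.62 at 0 g and 7.90 to 8.52 at 4 g. Bright genes weigh most in this sum, above all APOE (mean level 7.41), so it is not a measure of macrophage content. The mean of the 19 log2 levels was 1.20 to 1.37 at 0 g and 0.98 to 1.60 at 4 g. The part of macrophages in the SPP1 level was not tested. Of 21 stellate cell and fibroblast genes tested, 4 were higher and 17 lower (median −0.35). Among them DES, a filament of stellate and muscle cells, differed by −1.13 (SE 0.26), TAGLN by −1.04 (SE 0.26) and COL1A2 by −0.95 (SE 0.27), each lower in 4 of 4 animals with an adjusted p of limma of 1.00. Of 9 intestinal epithelium genes tested, 5 were higher and 4 lower (median 0.06), and 0 passed the adjusted test. Of the 16 with a probe, 6 were well above background on all 8 arrays, among them FABP1 (mean level 6.53), VIL1 (−0.99) and CDH17 (−1.54). FABP1, the liver fatty acid binding protein, is not a gene of intestine alone. SI, FABP2 and KRT20 were so on no array. CDH17 differed by 0.80 (SE 0.29, unadjusted p of limma 0.0315), higher in 4 of 4 animals, and by 0.51 without animals 23 and 24. All 14 tested pancreatic acinar genes were lower at 4 g (median −2.65), and all 14 were more than 2 log2 units higher on the 0 g array of animal 23 than on any other array. Hepatocyte genes were 15 higher and 8 lower (median 0.05).

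Without animals 23 and 24, the 88 other bile duct genes were 47 higher and 41 lower (median 0.01), and 0 of them had an unadjusted p of limma under 0.05. The medians were −0.06 for keratins and junctions, 0.13 for secretion and transport, −0.01 for cilia and polycystins, 0.03 for transcription factors and Notch, and 0.07 for mucosal defence. ANKRD1 (0.69), HEYL (0.45), CXCL8 (0.33), PIGR (0.68) and ONECUT1 (0.74) differed by amounts like those over 4 animals. SLC5A1 differed by 0.20 and TNC by 0.39 in place of 0.91 and 0.80, so animals 23 and 24 carried the larger part of both. SPINT2 (−0.06), ESRP1 (−0.09), GANAB (−0.02) and CD44 (−0.02) were near 0, and KRT7 (0.25), MUC1 (0.23), MMP7 (0.01), ITGA9 (0.10) and CP (−0.15) changed sign. KRT19 (−0.27), F11R (0.17), ST14 (−0.56), AQP1 (−0.32), SLC4A2 (−0.54), SEC63 (−0.08), PKD1 (−1.25) and TM4SF4 (0.14) kept theirs. The 21 stellate cell and fibroblast genes were 3 higher and 18 lower (median −0.44), with DES at −1.29, TAGLN at −0.85 and COL1A2 at −1.01. The acinar genes were 5 higher and 9 lower (median −0.27), the macrophage genes 7 and 12 (median −0.11), the hepatocyte genes 8 and 15 (median −0.12), the SPP1 partners 5 and 6 (median −0.02), and the intestinal genes 8 and 1 (median 0.13).

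The genes with levels most like each member over the 8 arrays were found by Pearson's r over the tested genes with a symbol, each by its brightest tested probe. This is a description, since the best of so many genes over 8 arrays is high by selection. For SPP1 they were UGT2B15 (r = 0.98), PNPLA4 (0.97), RFFL (0.96), ASPHD2 (0.94) and TBCEL (0.92). On the 7 arrays other than the 0 g array of animal 23, UGT2B15, PNPLA4, RFFL and ASPHD2 were again among the 5 most alike, at 0.95 to 0.97. For WFDC2 they were GAPT (0.99), ME2 (0.98), CSF1 (0.97), STAT6 (0.97) and CCDC9 (0.96), and GAPT and ME2 led again on the 7 arrays at 0.99. For EPCAM the most alike were LOC618664 (0.95), NELFE (0.93), IL20RA (0.92), SLC25A40 (0.91) and GIMAP6 (0.91), and the 5 found on the 7 arrays were different genes (ZWINT, AUNIP, NUDT17, ALKBH3 and WDR37). For CFTR, TNXB and CCDC8 (0.98) led over the 8 arrays and DNTT (1.00) over the 7. For ANXA4 the leaders were FRA10AC1 (0.98) and AASDH (0.98), and for CLDN4 they were LLGL1 (0.98) and UAP1L1 (0.99). The remaining genes of the rankings for CFTR, ANXA4 and CLDN4 had r between 0.95 and 0.99.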

How the data were processed

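Liver RNA of 4 animals at 2 doses was hybridised to 8 single-colour arrays on 1 slide. Per the file headers, the intensity values are processed signals (background-subtracted, linear) from Agilent Feature Extraction 11.0.1.1, and the submitters' processing notes name version 9.5. The deposited series table holds the authors' log2 values, which correlated with the log2 processed signal at r = 1.

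Of the 15646 features of each array, 536 controls were dropped. Outlier spots, 48 in all over the 8 arrays, were left out on the array concerned, and repeated spots of a probe were averaged. From log2 signal each array's 75th percentile over 15008 probes was subtracted. Probes well above background on at least 4 arrays were tested (10985). The 4 g minus 0 g difference came from limma 3.58.1 in R 4.3.3 (data.table version 1.17.8), 2-sided, blocked by animal, and p-values were adjusted by Benjamini-Hochberg over all tested probes at 0.05; animals were compared by the F-test of that fit. Deviations of the arrays of 1 animal correlated at −0.19 in animal 19, −0.18 in animal 20, 0.21 in animal 23 and 0.13 in animal 24. The animal block is taken from the labels. Signal over background sets the depth, no spot was saturated, and the number of arrays limits the precision.

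Genes were matched by the files' names, with RefSeq accessions and symbols (assembly ARS-UCD2.0, names alone) for the others. All members are named; of each other list, up to 3 genes with the smallest unadjusted p and the 2 with the highest level could be named, plus the 5 genes most alike each member; a few genes so chosen are not reported here. A gene with several probes was taken by its brightest. The members and lists were chosen with earlier results of these data known. Alternatives covered background correction, scaling, filters, variance model, array weights, single animals, slide rows and the block; the list values and the F-test without animals 23 and 24 were added after seeing the data.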

Additional observations from a re-analysis of the deposited data

How the results depend on the processing

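No member passed the adjusted test in any of 17 alternatives (smallest adjusted p of limma 0.422 for EPCAM and 0.429 for SPP1, both within slide row 2). SPP1, CFTR and ANXA4 kept their sign in all 17. Reversals were EPCAM at 0.06, CLDN4 at −0.21 and WFDC2 at −0.11 without animals 23 and 24, CLDN4 at −0.19 without animal 24, and WFDC2 at −0.13 without the 0 g array of animal 23. Leaving out 1 animal at a time gave 0.91 to 1.76 for SPP1, −1.67 to −0.67 for EPCAM, −0.66 to −0.07 for CFTR, 0.33 to 0.74 for ANXA4, −0.19 to 0.20 for CLDN4 and 0.04 to 0.43 for WFDC2. Without the animal block (no pairing) the differences were the same, with an unadjusted p of 0.0113 for SPP1 and 0.0685 for EPCAM, and 0 probes called. Without the 2 dimmest arrays and the block, 5 probes passed in place of 0, and SPP1 stood at 1.87, EPCAM at −1.82 and WFDC2 at 1.16. The unadjusted p of limma was then 0.000997 for SPP1 and 0.000513 for EPCAM, and the adjusted p 0.684 and 0.446. Probes with an unadjusted p under 0.05 numbered 121, and 17 with normexp, 360 with array weights, 58 to 406 without 1 animal, 50 without the 0 g array of animal 23, 309 without the 2 dimmest arrays, and 16 or 454 within slide row 1 or 2; the causes were not tested. The share of probes higher at 4 g was 53.6%, and 37.5% with normexp. F for WFDC2 between animals ran from 3.18 to 41.5. Normexp gave 0.24 for SPP1. It takes the mean spot signal and the median background in place of the processed signal and adds an offset, and the part of each was not tested.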
